A study of Mus musculus with 6 samples.

Results

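The 10 genes described here encode parts of the fibroblast growth factor (FGF) pathway and of its negative feedback: the ligands Fgf4, Fgf5, Fgf8 and Fgf15, the receptors Fgfr1 and Fgfr2, the feedback inhibitors Spry2, Spry4 and Dusp6, and the transcription factor Etv4. They were taken by symbol, and all 10 were found among the 57180 genes of the table. RNA was sequenced from 3 libraries of wild-type (WT) mouse embryonic stem (ES) cells and 3 libraries of ES cells with a double knockout of Mpp8 (gene Mphosph8) and Tasor (dKO), all of the C57BL/6 strain. MPP8 and TASOR are subunits of the HUSH complex, which silences retroelements and some genes in chromatin. The labels do not say whether the libraries came from separate cultures, nor whether the dKO cells are 1 clone, so p-values measure the spread between these libraries, which may be technical.

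FGF ligands bind receptor tyrosine kinases on the cell surface, and the receptors act through adaptors, RAS and the kinases RAF, MEK and ERK. ERK turns on genes of its own inhibitors, among them the Sprouty proteins and the phosphatase DUSP6, so their transcripts are commonly used as readouts of the pathway. In mouse ES cells the main ligand is FGF4, made by the cells themselves, and ERK signalling is known for moving cells out of the naive pluripotent state and, in the blastocyst, for specifying primitive endoderm.

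Total counts ran from 18384774 to 24910498 per library. A first principal component with 68.8% of the variance set WT apart from dKO, and WT replicate 2 lay at one end of the second, with 15.4%. The library labels were checked with the targeted genes. Mphosph8 was at 119 to 147 CPM (counts scaled to library size and composition) in WT and at 0.0484 to 0.207 CPM in dKO, and Tasor at 141 to 201 CPM in WT and 8.7 to 10.7 CPM in dKO. Of 10 pluripotency markers, all were tested and 2 were lower in dKO, and their summed level was 3222 to 4157 CPM in WT and 3400 to 3840 CPM in dKO. Of the trophoblast markers, 8 of 9 tested were lower in dKO (summed level 315 to 447 CPM in WT, 67.8 to 73.5 CPM in dKO, with Elf5 and Cdx2 each at 0 in 1 dKO library). Of the primitive endoderm markers, 5 of 8 tested were lower and 1 was higher (593 to 672 CPM in WT, 226 to 232 CPM in dKO, with Sox7 at 0 in 2 dKO libraries and Foxa2 in 2). Among the lower ones, Gata4 (log2 fold change -1.49) and Sox7 (-2.89) lie on chromosome 14, where 70.5% of tested genes were lower. Of the fibroblast markers, 5 of 8 tested were higher (34.4 to 42.9 CPM in WT, 56.7 to 59.2 CPM in dKO). The shares lower in dKO were 20% of pluripotency, 88.9% of trophoblast and 62.5% of primitive endoderm markers, beside 17.9% of all tested genes. The share higher was 62.5% for fibroblast and 12.5% for primitive endoderm markers, beside 16.4% of all tested genes. In bulk RNA, fewer cells of a type and less RNA per cell cannot be told apart, and the part of these cell types in the values below was not tested.

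Of the 10 genes, 8 had enough counts for a test. Spry2, Fgf4, Etv4 and Dusp6 fell in dKO, Fgfr1 rose slightly, and Fgfr2, Spry4 and Fgf15 were not called by edgeR's quasi-likelihood test with a Benjamini-Hochberg threshold of 0.05. Among the 15714 genes that entered the test, 34.3% were called, 17.9% as lower in dKO and 16.4% as higher, so 4 of 8 lower stands beside a background of 17.9%. Without WT replicate 2, the library that stood apart, the counts were again 4 lower and 1 higher. WT and dKO ranges were separate in 7 of these 8, as they were in 49.2% of all tested genes. In the authors' deposited table the adjusted p was under 0.05 for the same 4 lower genes, in a table where 18.4% of genes with a count were under it, and it was 0.0561 for Fgfr1.

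**Figure D1:**
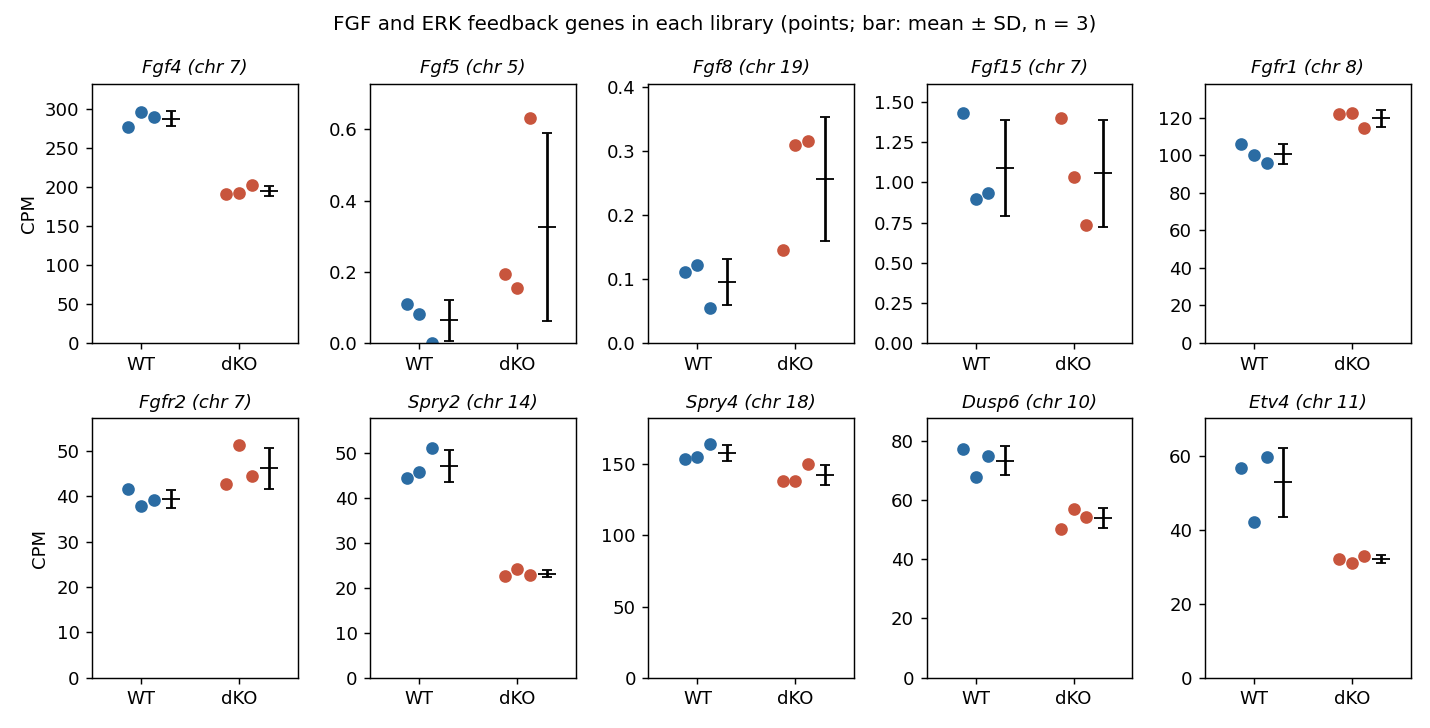
CPM of each of the 10 genes in every library (vertical axes from 0, a scale of its own per gene), with WT in blue and dKO in red and bars for the mean ± SD of 3 libraries. Spry2, Fgf4, Etv4 and Dusp6 have every dKO library below every WT library, while Fgf15 overlaps.

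Fgf4 (ENSMUSG00000050917, chromosome 7), the ligand that ES cells make under the pluripotency factors Pou5f1 and Sox2, was by far the most abundant FGF transcript in both genotypes. It was at 277, 295 and 289 CPM in the WT libraries and at 190.5, 192 and 202 CPM in the dKO libraries. The libraries of a genotype lay close together, and the lowest WT library was well above the highest dKO library. The mean was 287 ± 9.26 CPM in WT and 195 ± 6.31 CPM in dKO (SD, n = 3 each), and the expression fell by 32.1%, a log2 fold change of -0.56 (SE 0.0777, 95% interval -0.73 to -0.38, edgeR quasi-likelihood adjusted p = 0.000634). All 12 alternative settings called it, with adjusted p up to 0.00909. The log2 fold changes of Pou5f1 and Sox2 themselves (named with their values already seen) were 0.04 and 0.21, neither called.

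Fgf4 lies in a small cluster of genes on chromosome 7, between Fgf3 and Fgf15 and followed by Lto1 and the cyclin gene Ccnd1 in the order of protein-coding genes. The genes of the cluster did not share one change. Fgf15 (ENSMUSG00000031073), an endocrine ligand best known for bile acid feedback from the gut, had 1.43, 0.898 and 0.933 CPM in the WT libraries and 1.4, 1.03 and 0.736 CPM in the dKO libraries. The genotypes overlapped fully at this low level of 63 to 65 counts per genotype. Its log2 fold change was -0.03 with a wide 95% interval, -0.87 to 0.81, so a change of either sign within those bounds was not detectable at this depth. Fgf3 was not called (log2 -0.45, SE 0.256), while Ccnd1, a D-type cyclin gene that ERK signalling is known to raise, fell from 103 ± 4.02 to 46.8 ± 1.84 CPM (log2 -1.13, SE 0.0888). Lto1 and Tpcn2, the neighbours of Ccnd1, were named with their values already seen and were not called (log2 -0.21 and -0.07).

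Fgf5 (ENSMUSG00000029337, chromosome 5), a marker of the epiblast after implantation, was almost silent in both genotypes. It had 2, 2 and 0 counts in WT and 4, 3 and 12 counts in dKO, with most of the dKO counts in replicate 3. The 0 in WT replicate 3 allows up to 0.165 CPM. Fgf8 (ENSMUSG00000025219, chromosome 19), a ligand of the primitive streak, had 2, 3 and 1 counts in WT and 3, 6 and 6 counts in dKO. The highest WT and lowest dKO libraries held 2 and 3 reads for Fgf5 and 3 reads each for Fgf8, whose genotypes are separate only after scaling to library size (0.122 and 0.145 CPM). Neither passed the low-count filter, and an exact permutation test over the libraries (two-sided) gave p = 0.1 for each, the smallest p that 3 libraries against 3 can give. With no low-count filter the edgeR adjusted p was 0.166 for Fgf5 and 0.439 for Fgf8.

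Of the 22 FGF ligand genes in the table, 11 had enough counts for a test, and of these 1 rose (9.09%, beside 16.4% of all tested genes), 2 fell (18.2%, beside 17.9%) and 8 were not called. The median log2 fold change was -0.21, against -0.02 over all genes. Besides Fgf4, Fgf17 fell from 6.88 ± 1.78 to 2.64 ± 0.147 CPM (log2 -1.37, SE 0.231). It belongs to the Fgf8 subfamily and lies on chromosome 14. Fgf7, a ligand of mesenchymal cells that acts on epithelia, had 0, 1 and 4 counts in WT and 22, 28 and 13 counts in dKO. It is the 1 ligand called higher, but it passed the filter only through its dKO libraries, its WT mean was below the level that a count of 0 allows, and its fitted log2 fold change of 3.59 became 5.18 without WT replicate 3, so the size of the change is not fixed by these counts. The part of the fibroblast markers given above in its counts was not tested. Fgf22 (log2 -0.73) and Fgf11 (log2 0.28) were not called. Fgf10 was not called either (log2 -1.15, edgeR adjusted p = 0.071), but its adjusted p was 0.0225 with no low-count filter, 0.0231 with the replicate number as a block and 0.0139 without WT replicate 3, which are calls.

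Compared per length, in the authors' TPM (a length-scaled measure of transcript abundance), Fgf4 made up 84.4%, 89.4% and 86.6% of the summed level of the 22 ligand genes in WT and 84.7%, 84.8% and 84.3% in dKO. The shares overlapped between genotypes (exact permutation test, two-sided, p = 0.3, n = 3 each, smallest possible p = 0.1). The summed ligand level was 151 to 209 TPM in WT and 118 to 136 TPM in dKO, with no overlap.

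Of the 2 receptor genes of the set, Fgfr1 was called higher and Fgfr2 was not called. Fgfr1 (ENSMUSG00000031565, chromosome 8), the main FGF receptor of ES cells and epiblast, was at 106, 100.4 and 95.9 CPM in WT and 122, 123 and 115 CPM in dKO. All dKO libraries were above all WT libraries, by a small margin. The means were 101 ± 5.24 and 119.7 ± 4.51 CPM, a log2 fold change of 0.25 (SE 0.0838, 95% interval 0.06 to 0.44, edgeR quasi-likelihood adjusted p = 0.0469). This call sat at the threshold and was lost in 7 of 12 alternative settings (adjusted p 0.0216 to 0.192 over all 12), among them each one that left out WT replicate 1 or 3 or any dKO library.

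Fgfr2 (ENSMUSG00000030849, chromosome 7), the receptor associated with primitive endoderm and trophoblast, was at 41.6, 37.7 and 39.1 CPM in WT and 42.7, 51.3 and 44.5 CPM in dKO. The genotypes did not overlap, but the lowest dKO library was close to the highest WT library, and dKO replicate 2 stood above the other two. Its log2 fold change was 0.23 (SE 0.108, 95% interval -0.02 to 0.47, edgeR quasi-likelihood adjusted p = 0.137), an estimate close to that of Fgfr1 but with a wider spread. The ratio of Fgfr1 to Fgfr2 in TPM was 1.5, 1.65 and 1.33 in WT and 1.94, 1.36 and 1.49 in dKO. These ratios overlapped (exact permutation test on the log2 ratio, two-sided, p = 0.7, n = 3 each). Gene counts do not separate the IIIb and IIIc splice forms of the receptors, which bind different ligands.

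Among 22 receptor, coreceptor and accessory genes, 18 were tested, of which 3 rose (16.7%, beside 16.4% of all tested genes), 5 fell (27.8%, beside 17.9%) and 10 were not called, with a median log2 fold change of 0.17. Without dKO replicate 3, 1 was called higher, and with library totals or the replicate block 5 were. The other receptors were low, with Fgfr4 (log2 0.69, adjusted p = 0.0646 by edgeR) and Fgfr3 (log2 -0.74, adjusted p = 0.164 by edgeR) not called, both named after their values were seen. The next 6 genes encode proteins that assist FGF binding or signalling. They had the smallest p of the list besides the 10-gene set. Flrt3, a membrane protein that interacts with FGF receptors, fell from 12.8 ± 2.14 to 3.54 ± 0.504 CPM (log2 -1.85, SE 0.185), and its relative Flrt1 fell from 1.83 to 0.727 CPM, while Flrt2 rose from 2.23 to 4.27 CPM, a call lost without dKO replicate 3 (edgeR adjusted p = 0.0545). Gpc4, an X-linked glypican that carries heparan sulphate, fell from 26.3 ± 3.54 to 13.6 ± 1.22 CPM (log2 -0.95, SE 0.137). The syndecan gene Sdc2, another heparan sulphate carrier, rose from 22.2 ± 1.52 to 30.3 ± 0.926 CPM (log2 0.45, SE 0.103). The glypican gene Gpc6 on chromosome 14 had 15, 25 and 14 counts in WT and 3, 0 and 3 counts in dKO. It was called lower but passed the filter only through its WT libraries, and its dKO libraries were at or below the level that a count of 0 allows.

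The feedback inhibitors Spry2 and Dusp6 fell, and Spry4 was not called. Spry2 (ENSMUSG00000022114, chromosome 14) encodes a Sprouty protein that dampens receptor tyrosine kinase signalling upstream of ERK. It was at 44.5, 45.9 and 51.1 CPM in WT and 22.6, 24.2 and 22.9 CPM in dKO. Every dKO library had less than any WT library by a wide margin, and the dKO libraries were nearly equal. The mean went from 47.2 ± 3.48 to 23.2 ± 0.828 CPM, and the expression fell by 50.8% (log2 -1.02, SE 0.103, 95% interval -1.25 to -0.79, edgeR quasi-likelihood adjusted p = 9.07e-05), the largest change among the 8 tested genes of the set.

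Spry2 lies on a chromosome whose genes were mostly lower in dKO. The targeted genes Mphosph8 (log2 -9.82) and Tasor (log2 -4.04) lie on it too and are counted among its lower genes. Of 525 tested genes of chromosome 14, 370 (70.5%) were lower and 32 (6.1%) were higher, against 16.1% lower and 16.8% higher among tested genes elsewhere. The median log2 fold change on chromosome 14 was -0.94, with the middle 50% of its genes between -1.29 and -0.49. Spry2, at -1.02, was 0.09 below that median, and 43.2% of tested chromosome 14 genes had a lower value than Spry2. Spry2 is at place 492 of 525 in gene order. Of the 25 tested genes centred on it, 22 were lower and 1 was higher, with a median of -1.22. The fall was not even along the chromosome. The running median of 25 genes was 0.06 at Kat6b (place 86) and -0.86 at Slmap (place 103). An effect of the missing HUSH subunits on Spry2 itself and the difference shared by the genes around it cannot be told apart.

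**Figure D2:**
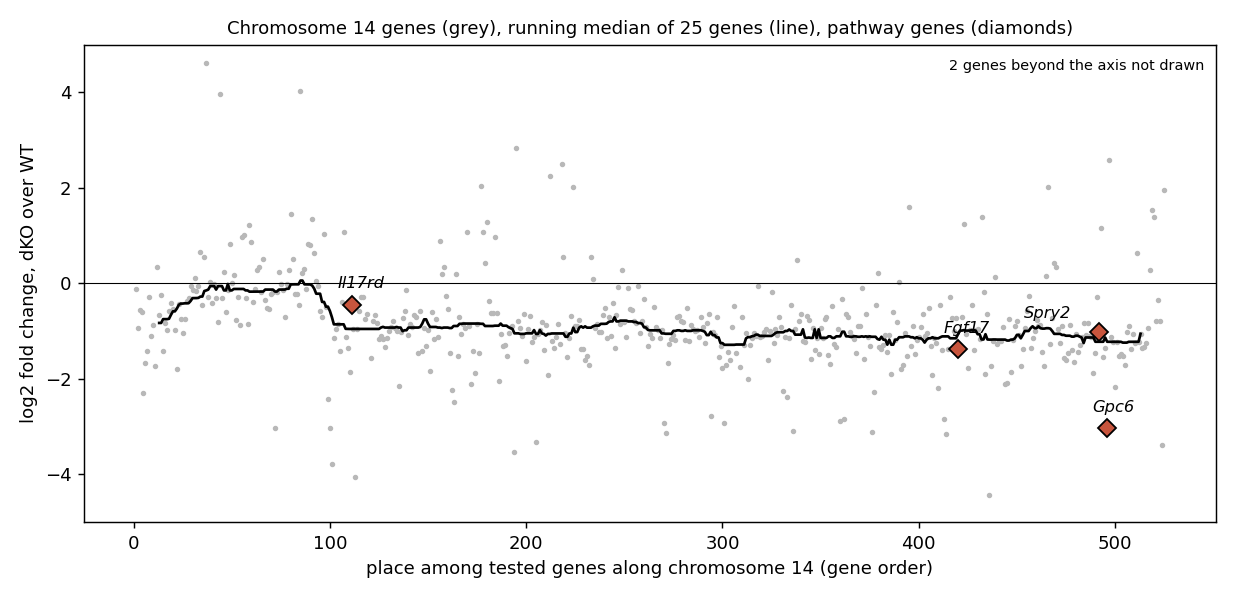
Log2 fold change of dKO over WT for the tested genes of chromosome 14 (grey points) against their place in gene order, with the running median of 25 genes (line) and the 4 tested pathway genes of the chromosome (diamonds). 2 genes beyond 5 on the log2 scale, Mphosph8 and Chdh, are not drawn. Spry2 (-1.02) sits 0.20 above the running median at its place, Il17rd (-0.44) further above its own, and the value of Gpc6 (-3.04) rests on 6 dKO counts.

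The pathway lists held 4 tested genes on chromosome 14, and all 4 were called lower. Il17rd, also called Sef, encodes a membrane inhibitor of FGF signalling and fell from 77.8 ± 5.24 to 57.3 ± 1.31 CPM (log2 -0.44, SE 0.093), a smaller change than the median of the 25 genes around it (-0.95). Fgf17 (log2 -1.37) lay below the median of its neighbours (-1.06). The fitted value of Gpc6, -3.04, rests on 6 dKO counts and ran from -3.44 to -2.48 with a library left out. Fgf9, Fgf14, Gpc5 and Egr3, on the same chromosome, had too few counts for a test.

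Dusp6 (ENSMUSG00000019960, chromosome 10) encodes the cytoplasmic phosphatase that takes the activating phosphates off ERK. It was at 77.2, 67.8 and 75.1 CPM in WT and 50.2, 56.9 and 54.3 CPM in dKO. The lowest WT library, replicate 2, was still above the highest dKO library. The mean went from 73.3 ± 4.9 to 53.8 ± 3.38 CPM, and the expression fell by 26.6% (log2 -0.45, SE 0.0993, 95% interval -0.67 to -0.22, edgeR quasi-likelihood adjusted p = 0.00748). The call was lost without dKO replicate 1 (adjusted p = 0.0573, range over alternatives 0.000682 to 0.0573).

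The start regions of 5 of the 10 genes were searched for motifs of factors that act downstream of ERK: Fgf4, Fgf5, Fgfr2, Spry2 and Dusp6. Windows came from RefSeq's table of promoters on GRCm38.p6 (250 bases before to 50 after a gene's start). Windows of the other genes of the set, among them the feedback inhibitor that was not called, are not reported here. Motifs are therefore not compared between feedback inhibitors called lower and not called. The sequences of Dusp6 (chr10:99262981-99263280, plus strand), Spry2 (chr14:105896770-105897069, minus strand) and Fgf4 (chr7:144861136-144861435, plus strand) are given 5′ to 3′ because these genes were called lower in dKO. Capitals mark matches to the octamers bound by Capicua, a repressor that ERK signalling relieves (TGAATGAA, TGAATGGA, TCAATGAA or TCAATGGA), and to the ETS family core CCGGAA, on either strand.
Dusp6: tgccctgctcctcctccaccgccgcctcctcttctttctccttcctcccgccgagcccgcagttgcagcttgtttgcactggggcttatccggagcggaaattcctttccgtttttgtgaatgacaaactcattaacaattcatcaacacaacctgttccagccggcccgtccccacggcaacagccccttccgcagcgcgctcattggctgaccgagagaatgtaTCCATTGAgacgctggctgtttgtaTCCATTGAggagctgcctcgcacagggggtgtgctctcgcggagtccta
Spry2: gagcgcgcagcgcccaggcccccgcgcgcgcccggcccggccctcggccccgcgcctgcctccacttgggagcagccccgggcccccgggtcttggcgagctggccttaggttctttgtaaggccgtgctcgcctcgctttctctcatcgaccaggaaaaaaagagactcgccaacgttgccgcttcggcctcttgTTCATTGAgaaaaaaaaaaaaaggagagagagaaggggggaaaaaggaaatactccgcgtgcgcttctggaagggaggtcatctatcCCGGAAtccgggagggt
Fgf4: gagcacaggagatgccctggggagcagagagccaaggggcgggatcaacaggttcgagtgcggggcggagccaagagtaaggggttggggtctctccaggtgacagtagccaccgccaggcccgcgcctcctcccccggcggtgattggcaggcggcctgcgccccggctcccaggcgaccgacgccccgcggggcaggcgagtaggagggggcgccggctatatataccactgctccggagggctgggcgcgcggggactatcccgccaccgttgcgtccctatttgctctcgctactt
The Dusp6 window held 2 Capicua octamers, both TCCATTGA, the reverse complement of TCAATGGA, and no ETS core. The Spry2 window held 1 Capicua octamer, TTCATTGA, the reverse complement of TCAATGAA, and 1 ETS core near its 3′ end, with no overlap between them. The Fgf4 window held neither. Of the windows not printed, that of Fgf5 held 1 ETS core and no Capicua octamer, and that of Fgfr2 held neither. None of the 5 held the AP-1 motif TGANTCA. Among all 32851 promoters of this length, 3.84% held at least 1 of the 4 Capicua octamers, 14.9% the ETS core and 7.81% the AP-1 motif. A match describes the letters of the window and does not show that a factor binds there. The windows of Fgf4, Spry2 and Dusp6 had a G and C content of 69.7%, 62.7% and 57.3%, against a median of 52.7% over all promoters. Those of Fgf5, which was not tested, and Fgfr2, which was not called, were at 68.3% and 43.7%.

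Spry4 (ENSMUSG00000024427, chromosome 18) encodes another Sprouty inhibitor. It was at 154, 155.5 and 164 CPM in WT and 138, 138.5 and 150.3 CPM in dKO. The genotypes did not overlap, with a narrow gap between WT replicate 1 and dKO replicate 3. Its log2 fold change was -0.15 (SE 0.081, 95% interval -0.33 to 0.03, edgeR quasi-likelihood adjusted p = 0.182), and none of the 12 alternative settings called it (adjusted p 0.0845 to 0.458). The interval allows a fall of up to 0.33 on the log2 scale.

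Of 26 feedback inhibitor genes, all tested, 12 fell (46.2%, beside 17.9% of all tested genes) and 3 rose (11.5%, beside 16.4%). The other 11 were not called, and the median log2 fold change of the 26 was -0.36. Without Spry2, Spry4 and Dusp6, 10 of 23 fell and the median was -0.27. The count of lower genes was 9 to 12 when any 1 library was left out. Among the lower ones, Spry2 and Il17rd lie on chromosome 14. Over all 5 pathway lists without chromosome 14, 32 of 107 tested genes fell (29.9%), beside 16.1% of all tested genes off that chromosome. The phosphatase genes Dusp9, which is X-linked, and Dusp5, whose product acts on ERK in the nucleus, fell from 66.7 ± 8.24 to 27.5 ± 1.65 CPM (log2 -1.28, SE 0.119) and from 22.6 ± 0.424 to 10.3 ± 0.425 CPM (log2 -1.13, SE 0.111). Dusp1, a phosphatase gene of the early response, fell from 44.9 ± 3.98 to 24.9 ± 1.96 CPM. Errfi1, an inhibitor of the EGF receptor, fell from 27.5 ± 3.28 to 10.5 ± 1.21 CPM (log2 -1.38, SE 0.14), and Pea15a, which holds ERK in the cytoplasm, fell from 30.3 ± 5.19 to 13.1 ± 0.513 CPM. Lrig1, which lowers receptor levels, rose from 14.7 ± 1.51 to 31.1 ± 0.296 CPM (log2 1.08, SE 0.114). Spry1, named with its value already seen, was not called (log2 0.26).

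Etv4 (ENSMUSG00000017724, chromosome 11) encodes an ETS transcription factor of the PEA3 group and is a common readout of FGF and ERK activity. It was at 56.9, 42.3 and 59.6 CPM in WT and 32.2, 30.9 and 33 CPM in dKO. WT replicate 2 was the lowest WT library and still above all dKO libraries, which lay close together. The mean went from 52.9 ± 9.33 to 32 ± 1.05 CPM, and the expression fell by 39.4% (log2 -0.72, SE 0.137, 95% interval -1.03 to -0.41, edgeR quasi-likelihood adjusted p = 0.00342). Without WT replicate 2 the log2 fold change was -0.86. Its relatives Etv5 and Etv1, named with their values already seen, had higher means in dKO: Etv5 had a WT mean of 503 ± 40 CPM and a dKO mean of 599.8 ± 23.3 CPM (log2 0.25, edgeR adjusted p = 0.0542, not called), and Etv1 rose from 13.7 ± 2.72 to 19.3 ± 1.67 CPM (log2 0.49, edgeR adjusted p = 0.0382). The call of Etv1 was lost in 4 of 12 alternative settings (adjusted p 0.00183 to 0.135).

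Of 30 genes of ERK-responsive factors and targets, 27 were tested. Of these, 12 fell (44.4%, beside 17.9% of all tested genes), 4 rose (14.8%, beside 16.4%) and 11 were not called. Their median log2 fold change was -0.45. Without Etv4, 11 of 26 fell. The 4 higher genes became 2 without WT replicate 3 or dKO replicate 1 and 1 without dKO replicate 2. Nr4a1, an early-response nuclear receptor gene, fell from 60.1 ± 5.25 to 17 ± 1.09 CPM (log2 -1.82, SE 0.112), while Elk3, an ETS factor gene of the ternary complex group, went from 32.4 ± 2.31 to 7.55 ± 1.2 CPM (log2 -2.10, SE 0.144). Plaur, the urokinase receptor gene, fell from 53.5 ± 7.06 to 20.4 ± 0.323 CPM, and Phlda1 from 18.4 ± 3.5 to 4.93 ± 0.878 CPM. Egr1, an early-response zinc finger gene, went the other way and rose from 35.6 ± 1.11 to 86.6 ± 3.77 CPM (log2 1.28, SE 0.0921). Fos, named after its value was seen, was at means of 1.84 and 1.68 CPM and not called (log2 -0.12). Cic, the gene of Capicua, also named after its value was seen, rose from 158 ± 13 to 200.4 ± 13.8 CPM (log2 0.34, edgeR adjusted p = 0.0202), a call lost in 3 of 12 alternative settings (adjusted p 0.0047 to 0.103).

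The 29 adaptor and kinase genes between receptor and ERK were all tested. Of these, 4 rose (13.8%, beside 16.4% of all tested genes), 5 fell (17.2%, beside 17.9%) and 20 were not called. Their median log2 fold change was 0.05. Rps6ka3, an X-linked kinase gene downstream of ERK, fell from 44.7 ± 10.3 to 20.5 ± 2.82 CPM (log2 -1.12, SE 0.173). Map2k1, which encodes MEK1, fell by 0.35 on the log2 scale (SE 0.0993), a call lost without dKO replicate 1 or 2 and without WT replicate 1 or 3. Plcg1, a phospholipase gene bound by FGF receptors, rose from 129 ± 9.45 to 187 ± 5.16 CPM (log2 0.53, SE 0.0854), Rras by 0.70 and the scaffold gene Ksr2 by 1.53. With library totals in place of TMM factors 3 adaptor and kinase genes were lower, and with the replicate number as a block 8 were. Only 1 was called lower without dKO replicate 1 or without dKO replicate 2, 2 without WT replicate 1 and 3 without dKO replicate 3.

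**Figure D3:**
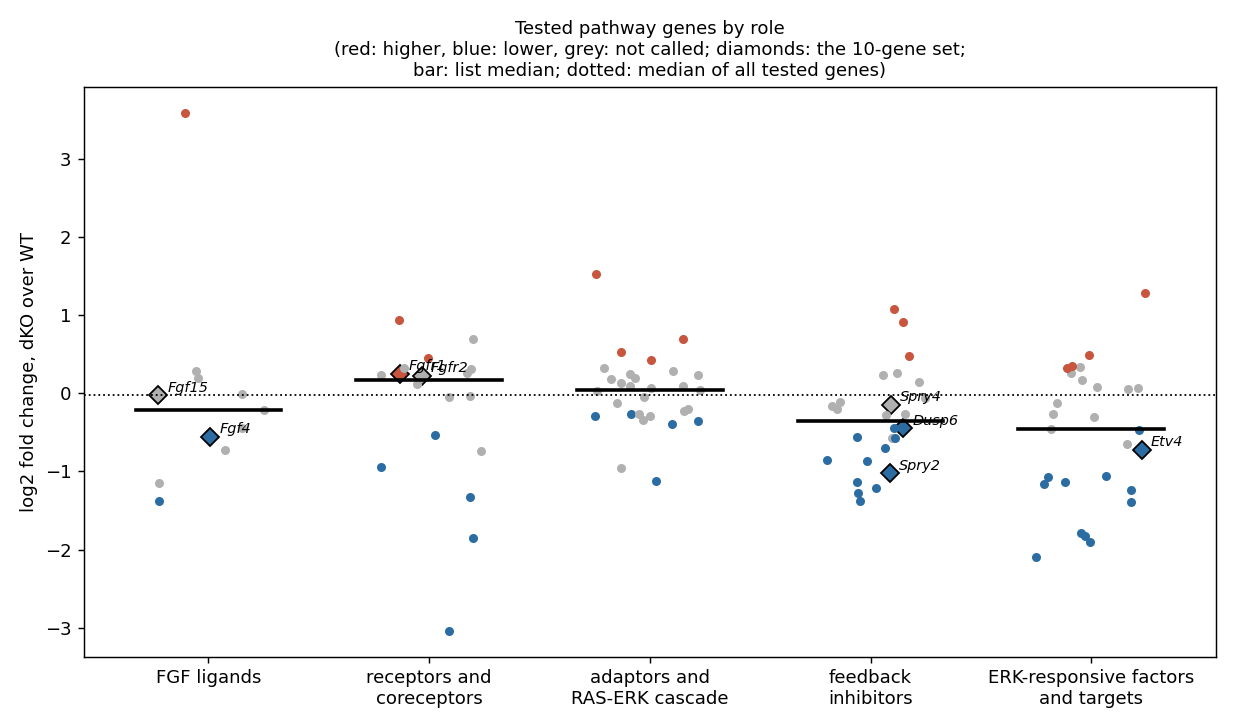
Log2 fold change of dKO over WT for each tested gene of the 5 pathway lists, grouped by role (red called higher, blue called lower, grey not called), with diamonds for the tested genes of the 10-gene set, a bar for each list's median and a dotted line for the median of all tested genes (-0.02). Medians are -0.36 for feedback inhibitors, -0.45 for ERK-responsive genes and 0.05 for adaptors and the RAS-ERK cascade.

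Levels of the 10 genes were ordered per length with the deposited TPM. In WT, Fgf4 came first at 154.5 ± 28.7 TPM, apart from the rest. Etv4 (53.5 ± 2.83 TPM), Spry4 (51.8 ± 7.84), Dusp6 (49.2 ± 7.04), Fgfr1 (41.3 ± 9.89) and Spry2 (38.4 ± 4.46) followed, each overlapping its neighbour in this order. Compared within each WT library, Spry4 was above Dusp6 and Dusp6 above Fgfr1 in all 3. Etv4 was above Spry4, and Fgfr1 above Spry2, in 2 of 3. Fgfr2 (27.4 ± 3.69 TPM) lay apart below them, then Fgf15 (1.05 ± 0.308), Fgf8 (0.24 ± 0.01) and Fgf5 (0.0433 ± 0.0379). The small SD of Fgf8 is no measure of precision, as its WT libraries held 2, 3 and 1 counts. In CPM its WT SD was 37.6% of the mean. In dKO, Fgf4 again came first at 108 ± 8.35 TPM, and Fgfr1 (50.1 ± 8.9) was second. Spry4 (48.5 ± 3.12 TPM) overlapped Fgfr1, and Dusp6 (36.7 ± 6.09), apart from Spry4, and Etv4 (32.6 ± 3.93) came next. Dusp6 was above Etv4 within each dKO library, though their ranges overlapped. Spry2 (19.8 ± 2.43 TPM) was lowest of the 7 abundant genes and apart from Fgfr2 (32 ± 8.34). Fgf15 (1.11 ± 0.416 TPM) overlapped Fgf8 (0.667 ± 0.235), and Fgf5 was at 0.217 ± 0.15 TPM.

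**Figure D4:**
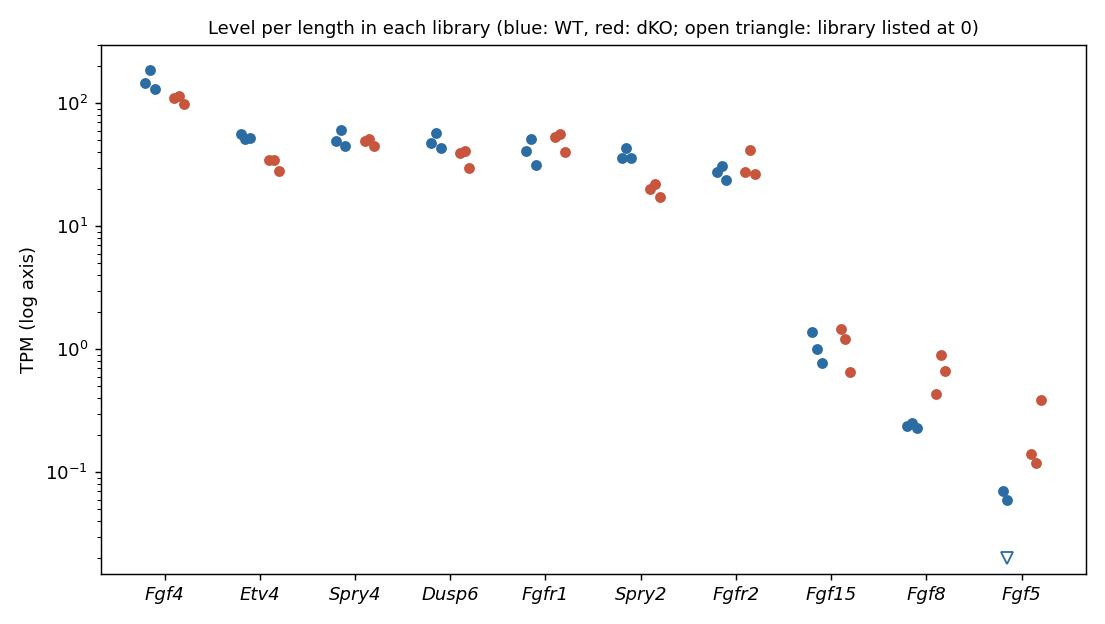
Deposited TPM of the 10 genes in every library on a log axis, ordered by the WT mean, with WT in blue and dKO in red and an open triangle for the WT library in which Fgf5 is listed at 0. Fgf4 stands above the rest in both genotypes, 6 genes lie between about 17.2 and 60.5 TPM, and Fgf15, Fgf8 and Fgf5 lie below 1.5 TPM.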

How the data were processed

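RNA was measured in 3 WT and 3 dKO libraries prepared, per the labels' protocols, from Trizol-extracted total RNA with a TruSeq kit. GRCm39, DESeq 1.26.0, RSEM, HISAT2 2.1.0 and FastQC stand in the submitters' processing notes, with no roles. Not given in the sources used here are the annotation release and whether counting used strand. For each gene the authors deposited estimated (expected) counts and TPM per library, the mean TPM per genotype, a gene length in bases and, per the file headers, their own comparison: a fold (ratio) of dKO over WT, the same on a log2 scale, and raw and adjusted p-values. Of the deposited estimated counts above 0, 24.6% were not whole, and counts were rounded. TPM served for comparing levels between genes.

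Genes were filtered with filterByExpr (15714 tested), scaled with TMM and tested in edgeR 4.0.16 (R 4.3.3) by genotype, with robust quasi-likelihood fits. The common biological coefficient of variation was 0.156. Standard errors (SE) were derived from the F statistic, as |log2 fold change| over its square root. A count of 0 allows 3 counts, for counting error only. DESeq2 1.42.0 was an alternative. Steps were tested on simulated data. Replicates of a genotype differed by more than sampling noise.

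The 10 genes and the lists were chosen with earlier results of these data known. From each of 5 lists of pathway genes (129 genes in all), the 6 tested genes with the smallest p besides the 10, and list genes on chromosome 14, are named by rule, except for items that are not reported here. Chromosomes and gene order came from GENCODE M21 (GRCm38) by Ensembl identifier. Python 3.11.15, SciPy 1.17.1 and matplotlib 3.10.9 were used.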

Additional observations from a re-analysis of the deposited data

How the results depend on the processing

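Of the 8 tested genes of the set, Fgf4, Spry2 and Etv4 kept their call in 12 of 12 alternative settings. Fgfr1 was lost with TMM factors computed without chromosomes 14 and Y (log2 0.23) and without a low-count filter (log2 0.26), so that 0 genes of the set were higher there. Leaving out 1 library at a time, its log2 fold change ran from 0.20 to 0.29 and 0 to 1 genes of the set were higher and 3 to 4 lower. Dusp6 ran from -0.50 to -0.40 and Fgf15 from -0.29 to 0.22, and with library totals Fgf15 was at 0.034. Lower genes over all tested numbered 2814 and, with 1 library left out, 1845 (without dKO replicate 1) to 3469. Receptor and coreceptor genes called higher were 5 with library totals and 5 with the replicate block, and 1 to 4 with a library left out, cascade genes called lower were 3, 8 and 1 to 7, and ERK-responsive genes called higher were 1 to 6 with a library left out. Spry2 minus the chromosome 14 median was -0.21 without a low-count filter and, against the 25 genes around it (chosen after seeing the data), 0.20. The Fgf4 share of ligand TPM, 2.19 percentage points lower in dKO, was 0.20 points higher over ligands with a mean of 1 TPM or more. The Fgfr1 to Fgfr2 difference ran from -0.062 to 0.19 on the log2 scale with a library left out. The causes were not tested. Whether replicate numbers pair the libraries is not given by the labels and cannot be settled with 3 libraries per genotype. Deviations of same-numbered libraries correlated at -0.076, 0.27 and 0.33. Not every library correlated best with its own number. The replicate block raised the lower genes from 2814 to 3495 and the higher genes from 2578 to 3299 and changed no call among the 8 (Fgf4 log2 -0.56). Low counts limit Fgf5, Fgf8 and Fgf15.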

Other observations

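The deposited TPM of 2 ligand genes with very few reads stood out. Fgf1 was listed at 5.9 TPM in WT replicate 1 with 12 counts and at 0.25 and 0.04 TPM in the other WT libraries with 9 and 2 counts. Fgf9 was listed at 4.17 TPM in dKO replicate 3 with 5 counts and at 0 and 0.16 TPM in dKO replicates 1 and 2 with 0 and 4 counts. A TPM value here does not follow the count alone, and these 2 values enter the ligand shares given above.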
